A study of Mus musculus with 20 samples.

Results

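Kidney tumours of mice given the hydrogen sulfide donor GYY4137 without checkpoint blockade were compared with tumours of mice given vehicle, 5 libraries against 5. The series holds 20 bulk RNA libraries of tumours grown from the MSRT1 cell line, which the labels describe as renal medullary carcinoma, in 4 groups of 5. GYY_IgG received GYY4137 and a control IgG, and Veh_IgG received vehicle and the same kind of control IgG, so that both carry the antibody control and differ in the donor. The other groups, Veh_PD1 and GYY_PD1, received an antibody against PD1 in place of the IgG and are used here only beside the first pair. Mouse strain, age, sex, dose and duration of treatment are not given in the sources used here, and all tumours come from 1 cell line. Of the 34234 genes in the table, the 11834 protein-coding genes with at least 1 TPM, a length-corrected share of the transcripts of a library, in at least 5 of the 20 libraries were compared.

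GYY4137 releases hydrogen sulfide slowly. Cells make this gas themselves with the enzymes CBS, CTH and MPST, clear it in mitochondria through SQOR, ETHE1, TST and SUOX, and at high levels it blocks cytochrome c oxidase, the last complex of the respiratory chain. The cytokine interferon gamma is made by activated T cells and NK cells. It binds a receptor of the chains IFNGR1 and IFNGR2, and its signal reaches the promoters of target genes through GAS elements and through ISRE elements, which IRF1 and related factors bind.

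Values are given as median-scaled TPM, that is, TPM divided by the library's median over the 11834 genes and multiplied by the common value of 9.91 TPM. A difference on this scale places a gene relative to the middle of the measured genes and gives no amount of RNA per cell. Log2 differences are GYY_IgG minus Veh_IgG on the scale log2(median-scaled TPM + 1), which understates the change of low genes, and come with the standard error (SE) of limma. A gene is called where its Benjamini-Hochberg adjusted p is under 0.05 over all genes. Groups that do not overlap have every GYY_IgG library above, or below, every Veh_IgG library.

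The libraries differed in ways other than treatment. Models that resemble satellite repeats, 12 of them among the genes compared, held 5.86% to 54.9% of TPM in GYY_IgG, where replicates 3 and 4 stood at 54.9% and 44.1%, and 3.53% to 13.2% in Veh_IgG (two-sided exact permutation p = 0.111, 0.278 adjusted over 5 library measures). The share of TPM in protein-coding genes of the nuclear genome was 28.3% ± 14.3 in GYY_IgG and 33.9% ± 6.16 in Veh_IgG (SD, n = 5). The number of the 11834 genes at 1 TPM or more was 11051 ± 614 and 11357 ± 201. Read depth is unknown. The labels call the replicates biological, and nothing further says how they were housed or processed. Smarcb1, the chromatin remodelling subunit whose loss typically defines renal medullary carcinoma, stood at 17.6 to 29.0 median-scaled TPM in GYY_IgG and 20.4 to 31.0 in Veh_IgG. Bulk RNA does not show which cells of the tumour carried that signal.

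No gene passed the test: 0 of 11834 (0.0%) were called, and the smallest adjusted p of limma was 0.0717. At an unadjusted p under 0.05, 279 genes (2.36%) had a higher and 386 (3.26%) a lower mean with GYY4137. The groups did not overlap for 67 genes (0.566%) that were higher and 57 (0.482%) that were lower. The 2 directions differed in size: 10 of the 67 lay more than 1 log2 unit apart, against 0 of the 57, for which the largest difference was -0.70. After rescaling to nuclear protein-coding genes instead, the same count was 103 higher and 33 lower. Without the 2 GYY_IgG libraries rich in satellite-like TPM it was 280 and 320.

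**Figure D1:**
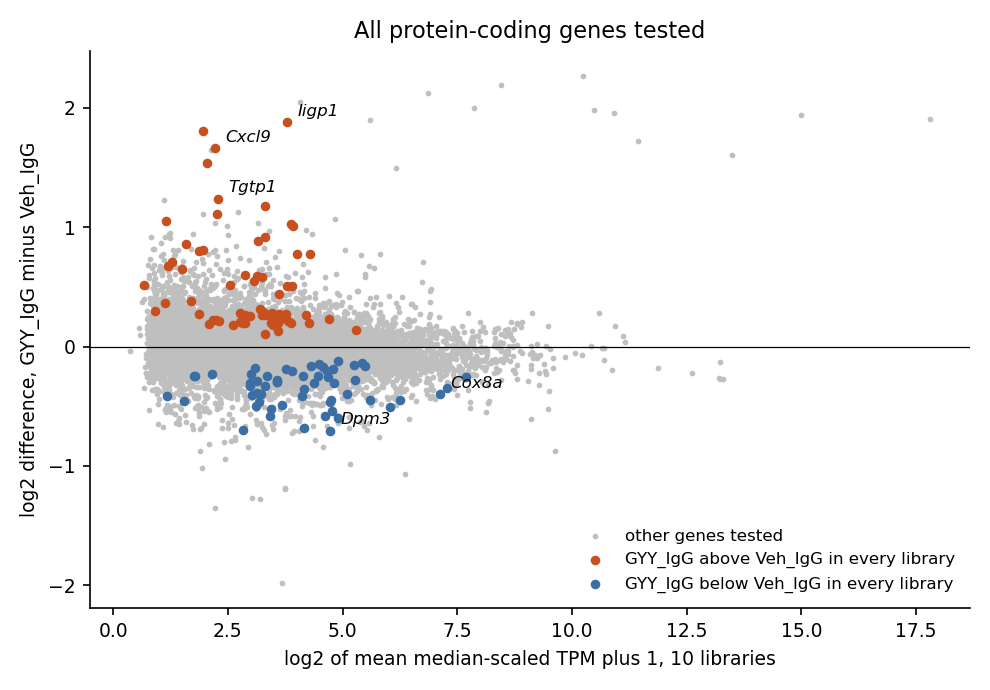
Log2 difference of GYY_IgG minus Veh_IgG against the mean level over the 10 libraries for the 11834 genes, each point 1 gene; orange and blue points are the 67 and 57 genes whose groups do not overlap. The orange points reach further from 0 than the blue ones, with Iigp1 and Cxcl9 at 1.88 and 1.66; most of the grey points high on the right are satellite-like models.

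Of the 10 genes more than 1 log2 unit apart, 7 have full names: Iigp1, Cxcl9, Tgtp1, Gbp2b, Tgtp2, Gbp2 and Zbp1. Each of these is known to be induced by interferons. The other 3 carry provisional names (F830016B08Rik, Gm4841 and Gm10961). The gene with the smallest adjusted p, F830016B08Rik, falls outside the naming rule and was chosen after its values were seen. It stood at 3.80 to 7.26 median-scaled TPM in GYY_IgG and 0.380 to 1.72 in Veh_IgG, a log2 difference of 1.54 (SE 0.20; limma adjusted p = 0.0717), and lies on chromosome 18 (60293380 to 60303016, GRCm38), on the same chromosome as Iigp1 (60376027 to 60392634).

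Genes of the interferon gamma response formed the list with the highest median among the 50 lists with at least 3 tested members. The lists were chosen with earlier results of these data known, so this rank and the counts below are a description only. Of its 27 genes, 23 were tested, and 20 of these had a higher mean with GYY4137. The groups did not overlap for 13 of the 23, all 13 higher in GYY_IgG, beside 0.566% of all genes. An unadjusted p under 0.05 was reached by 18, all higher, beside 2.36% of all genes, and 0 were called. The median log2 difference of the list was 0.77, against 0.00 for all genes tested. Its mean level per library, in log2 units, was 3.32, 3.31, 3.12, 3.39 and 3.19 in GYY_IgG replicates 1 to 5 and 2.67, 1.97, 2.58, 2.87 and 2.61 in Veh_IgG replicates 1 to 5. All 5 donor-treated tumours lay above all 5 vehicle tumours, and Veh_IgG replicate 2 was the lowest library. Without that library the median of the list was 0.63, and without the 2 satellite-rich libraries it was 0.80.

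Promoters are shown for the members with the smallest p that hold a GAS core (TTCNNNGAA) or an ISRE core (GAAANNGAA), because these are the elements through which interferon signals reach their target genes. RefSeq windows of 300 bases (GRCm38.p6) around the annotated start were found for 17 of the 23 tested members, with 20 windows in all. The core matches are in capitals. Cxcl9 (chr5:92328030-92328329, minus strand) holds 1 ISRE core. Tgtp1 (chr11:48992197-48992496, minus strand) and Igtp (chr11:58199306-58199605, plus strand) each hold a GAS core followed after a short gap by an ISRE core.
Cxcl9: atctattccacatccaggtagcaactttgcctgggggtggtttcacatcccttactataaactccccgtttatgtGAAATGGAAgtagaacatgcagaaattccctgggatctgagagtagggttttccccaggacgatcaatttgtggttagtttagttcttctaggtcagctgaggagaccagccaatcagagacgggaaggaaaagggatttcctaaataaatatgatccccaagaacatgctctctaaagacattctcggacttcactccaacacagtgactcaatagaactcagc
Tgtp1: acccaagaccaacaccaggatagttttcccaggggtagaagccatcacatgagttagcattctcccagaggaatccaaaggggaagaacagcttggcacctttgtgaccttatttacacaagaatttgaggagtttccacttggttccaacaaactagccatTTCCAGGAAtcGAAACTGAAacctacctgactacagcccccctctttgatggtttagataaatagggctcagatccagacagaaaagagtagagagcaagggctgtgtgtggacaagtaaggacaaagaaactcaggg
Igtp: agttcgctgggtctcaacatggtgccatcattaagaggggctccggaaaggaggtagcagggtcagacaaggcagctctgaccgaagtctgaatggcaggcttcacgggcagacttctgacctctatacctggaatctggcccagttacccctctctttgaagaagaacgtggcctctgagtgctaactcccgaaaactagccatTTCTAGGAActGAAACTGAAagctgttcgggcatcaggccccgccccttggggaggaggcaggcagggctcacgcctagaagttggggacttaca
In both Tgtp1 and Igtp the GAS core (TTCCAGGAA and TTCTAGGAA) is separated from the ISRE core GAAACTGAA by a spacer of the same length. Over the 20 windows, 9 hold the GAS core and 12 the ISRE core on either strand, with 6 holding both. Among all 32851 windows of the table the shares are 8.30% and 8.56%. A match says only that the letters are present in the window, and overlapping matches were each counted.

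The ligand and its receptor were at opposite ends of the expression range of the list. Ifng, the cytokine itself, lies below the filter. It was at 0.165, 0.111, 0.188, 0.153 and 0.0786 median-scaled TPM in GYY_IgG replicates 1 to 5 and is listed at 0 in all 5 Veh_IgG libraries. The reads behind these levels are unknown, so a listed 0 does not show absence. Genes of olfactory and vomeronasal receptors, which a tumour should lack, averaged 0.0244, 0.0295, 0.169, 0.141 and 0.0147 median-scaled TPM in the same GYY_IgG libraries and 0.0132 to 0.0531 in Veh_IgG. In GYY_IgG replicates 3 and 4 Ifng was thus about at this background, and no difference in Ifng is read from these values. Ifngr1, the ligand-binding chain, stood at 53.3 ± 9.19 in GYY_IgG and 62.5 ± 7.23 in Veh_IgG (SD, n = 5), with a log2 difference of -0.24 (SE 0.13). The second chain, Ifngr2, differed by -0.05 (SE 0.11). For both receptor chains the groups overlapped.

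Among the regulators on the list, Irf1 and Ciita separated the groups, and Irf8 and Socs1 did not. Irf1, an early target of interferon gamma, was at 14.6 to 16.0 median-scaled TPM in GYY_IgG and 8.12 to 12.3 in Veh_IgG, a difference of 0.51 (SE 0.10; limma adjusted p = 0.286) with no overlap. Ciita, the coactivator that MHC class II transcription needs, was at 1.41 to 2.78 and 0.484 to 1.40, again without overlap, and differed by 0.71 (SE 0.18; adjusted p = 0.704). Its level was low and the gap between its groups was very narrow, unlike that of Irf1. Irf8, a regulator of myeloid cells, differed by 0.25 (SE 0.16), and Socs1, which inhibits the pathway, by 0.35 (SE 0.19), with overlapping groups in each case.

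Among the chemokines that draw activated T cells, Cxcl9 showed one of the largest gaps of the list. Cxcl9, on chromosome 5 (92321347 to 92328079), was at 6.85, 8.31, 3.66, 4.94 and 6.62 median-scaled TPM in GYY_IgG replicates 1 to 5 and at 1.88, 0.318, 1.25, 1.85 and 1.005 in Veh_IgG. The lowest donor-treated tumour stood above the highest vehicle tumour, and the ratio of the means was 4.81. The log2 difference was 1.66 (SE 0.24; limma adjusted p = 0.107). Cxcl10, its neighbour with the same receptor, was at 4.02 to 8.31 in GYY_IgG and 0.704 to 5.01 in Veh_IgG, a difference of 1.01 (SE 0.32; adjusted p = 0.836) with overlapping groups. The third ligand of that receptor, Cxcl11, is annotated as a polymorphic pseudogene and was not tested. Its means were 0.386 and 0.313.

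Immunity-related GTPases, which attack the vacuoles of intracellular pathogens, gave the largest difference of the list. Iigp1 was at 22.4, 20.01, 14.2, 21.4 and 23.3 median-scaled TPM in GYY_IgG replicates 1 to 5 and at 8.02, 0.858, 5.97, 7.18 and 5.36 in Veh_IgG. Its means were 20.3 ± 3.61 and 5.48 ± 2.78 (SD, n = 5), a log2 difference of 1.88 (SE 0.36; limma adjusted p = 0.247). Tgtp1 stood at 4.53 to 6.87 and 0.512 to 2.57, a difference of 1.24 (SE 0.22; adjusted p = 0.210). All members of this family named here separated the groups completely. Tgtp2 differed by 1.11 (SE 0.22), and because Tgtp1 and Tgtp2 are near-identical copies, the split of reads between them is uncertain. Igtp (0.92, SE 0.18), Irgm1 (0.77, SE 0.17) and Irgm2 (0.60, SE 0.14) were higher by less.

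Guanylate-binding proteins, large GTPases that coat such vacuoles and help to trigger inflammasomes, followed the same order. Gbp2, on chromosome 3, was at 22.7, 16.7, 13.96, 18.6 and 19.4 median-scaled TPM in GYY_IgG replicates 1 to 5 and at 11.4, 3.59, 11.2, 9.92 and 8.43 in Veh_IgG. The log2 difference was 1.03 (SE 0.25; limma adjusted p = 0.527). Gbp2b, which was not on the list, was at 11.4 to 13.3 in GYY_IgG and 2.48 to 7.14 in Veh_IgG, 1.18 apart (SE 0.19; adjusted p = 0.166). Gbp3 (0.89, SE 0.24) and Gbp5 (0.80, SE 0.19) also separated the groups, while Gbp4 (0.81, SE 0.27), Gbp7 (0.59, SE 0.17) and Gbp9 (0.49, SE 0.21) had overlapping groups. Members of this cluster resemble one another, so reads may be shared between them. Nos2, the inducible nitric oxide synthase of activated macrophages, had a lower mean (-0.21, SE 0.50) and overlapped.

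**Figure D2:**
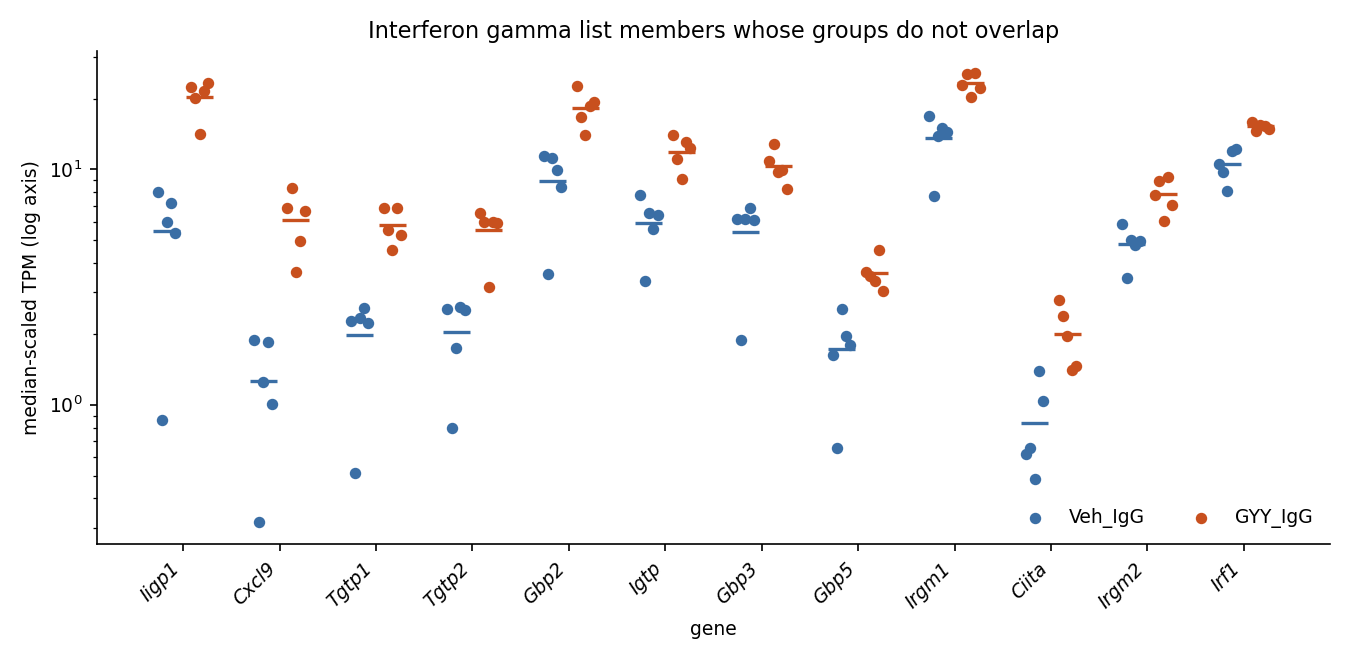
Median-scaled TPM (log axis) of 12 of the 13 interferon gamma list members whose groups do not overlap, in each of the 5 Veh_IgG (blue) and 5 GYY_IgG (orange) libraries; bars are group means. Each orange set lies above its blue set, and the single low blue point of most genes is Veh_IgG replicate 2, for example 0.318 for Cxcl9 and 0.858 for Iigp1.

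Leaving out Veh_IgG replicate 2 made these gaps smaller. Without it the log2 difference was 1.47 for Iigp1, 1.48 for Cxcl9, 1.01 for Tgtp1, 0.98 for Gbp2b and 0.77 for Gbp2. With that library out, limma called 6 genes, all higher with GYY4137: Cxcl9, F830016B08Rik, Gbp2b, Iigp1, Tgtp1 and Zbp1, with adjusted p from 0.0112 for Iigp1 to 0.0470 for Zbp1. A count of 0 called genes therefore holds for all 10 libraries and not for these 9. With the 2 satellite-rich libraries left out, Cxcl9 differed by 1.92 and Iigp1 by 2.00.

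The type I interferon list, whose genes answer to interferon alpha and beta and overlap in part with those of interferon gamma, gave smaller values. Of its 29 tested genes, 28 had a higher mean, 1 did not overlap (higher, beside 0.566% of all genes) and 9 had an unadjusted p under 0.05 (beside 2.36%). The median log2 difference was 0.29. Zbp1, a sensor of Z-form nucleic acid, was the non-overlapping gene, at 16.0, 18.1, 23.4, 21.7 and 16.6 median-scaled TPM in GYY_IgG replicates 1 to 5 and at 9.79, 5.595, 8.88, 11.2 and 10.1 in Veh_IgG. It differed by 1.01 (SE 0.16; limma adjusted p = 0.166). Oasl2, a relative of the oligoadenylate synthetases, differed by 0.67 (SE 0.21), Irf7, the master regulator of interferon alpha genes, by 0.47 (SE 0.16) and Trim30a by 0.32 (SE 0.10), with overlapping groups in each.

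Antigen presentation by MHC class I had a higher mean for 19 of 19 tested genes, by small amounts. The median log2 difference was 0.18, 0 genes separated the groups (beside 0.566% of all genes), and 5 had an unadjusted p under 0.05 (beside 2.36%). H2-Q6, a non-classical class I molecule, stood at 14.2 to 28.6 median-scaled TPM in GYY_IgG and 11.9 to 15.1 in Veh_IgG (0.44, SE 0.15). Psme1, an activator of the proteasome, differed by 0.36 (SE 0.14), the immunoproteasome subunit Psmb9 by 0.30 (SE 0.11) and the peptide trimmer Erap1 by 0.29 (SE 0.12). Since the deposited, unscaled TPM shifted the median of all genes by -0.33, the type I and class I medians were -0.03 and -0.21 on that scale, above the shift but below 0, while that of the interferon gamma list stayed at 0.53.

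MHC class II genes, expressed by macrophages, dendritic cells and B cells, had a median log2 difference of 0.58 over 9 tested members. Of these, 8 had a higher mean and 4 an unadjusted p under 0.05 (beside 2.36% of all genes). The 1 without overlap (beside 0.566%) was Ciita, which is also on the interferon gamma list and counted there. The median was 0.93 without the satellite-rich libraries. H2-Eb1, a class II beta chain, was at 34.0, 39.1, 24.3, 7.67 and 25.8 median-scaled TPM in GYY_IgG replicates 1 to 5 and at 12.2, 11.3, 9.45, 18.0 and 8.69 in Veh_IgG. GYY_IgG replicate 4 lay below every Veh_IgG library, and the other 4 above all of them. H2-Eb1 differed by 0.94 (SE 0.36), H2-DMb1 by 0.73 (SE 0.33) and H2-DMa, which loads peptides with it, by 0.38 (SE 0.13).

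Checkpoint genes were partly below the filter. Pdcd1, which encodes PD1, was at 0.260 to 0.645 median-scaled TPM in GYY_IgG and 0.0614 to 0.227 in Veh_IgG, below the filter in both. Cd274, the ligand PD-L1 and itself a target of interferon gamma, was at 8.48, 7.64, 17.1, 15.1 and 6.61 in GYY_IgG replicates 1 to 5 and at 6.43, 5.81, 7.67, 7.12 and 6.02 in Veh_IgG. Replicates 3 and 4 of GYY_IgG, the satellite-rich libraries, were the highest. Replicate 1 also lay above every vehicle library, and replicates 2 and 5 fell within the vehicle range. The log2 difference was 0.57 (SE 0.22; limma adjusted p = 0.836). Over the 7 tested checkpoint genes, 5 had a higher mean and the median was 0.18, which was -0.01 without the satellite-rich libraries and lay between -0.00 (without GYY_IgG replicate 4) and 0.33 (without GYY_IgG replicate 1) when 1 library was left out.

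Markers of T cells and cytotoxic cells were low throughout, and their sums were higher with GYY4137, with no background taken off. Of 17 T cell markers, 5 passed the filter. Over the whole list of 17 the summed level ranged from 12.8 to 27.2 median-scaled TPM in GYY_IgG and from 8.06 to 10.3 in Veh_IgG. Cd3g, a chain of the T cell receptor complex, was at 0.671 to 0.987 and 0.0827 to 0.521 (0.52, SE 0.17). It was the 1 of the 5 tested markers without overlap, beside 0.566% of all genes. Cd3g was below 1 TPM in every Veh_IgG library and passed the filter only through other groups, so its separation is a description only. The receptor constant segment Trac, outside the protein-coding class, was at 0.840 to 4.32 and 0.175 to 0.834. None of the 12 cytotoxic and NK cell markers passed the filter, and their sum ranged from 3.40 to 10.4 in GYY_IgG and 1.12 to 2.63 in Veh_IgG. Gzmb, a granule protease, had means of 0.712 and 0.164 there. The receptor background given for Ifng was 0.169 and 0.141 median-scaled TPM per gene in GYY_IgG replicates 3 and 4. It was 0.0132 to 0.0531 in Veh_IgG, and it adds to such sums. The part of this background in the higher values was not tested, and markers below the filter were not tested for a difference. In bulk RNA, more cells of a type and more RNA per cell cannot be told apart, and the part of these cells in the values of the interferon genes was not tested.

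Macrophage markers did not share that order. Their sum over 12 genes was 347 to 446 median-scaled TPM in GYY_IgG and 396 to 474 in Veh_IgG, and 4 of 11 tested members had a higher mean. At an unadjusted p under 0.05, 1 was higher (beside 2.36% of all genes) and 2 were lower (beside 3.26%). Cd163, a scavenger receptor of tissue macrophages, was at 6.83, 3.95, 3.20, 7.75 and 15.4 in GYY_IgG replicates 1 to 5 and at 13.8, 26.9, 19.7, 8.42 and 17.3 in Veh_IgG. The groups overlapped through GYY_IgG replicate 5 and Veh_IgG replicate 4, and the log2 difference was -1.20 (SE 0.36; limma adjusted p = 0.836). Vsig4 (-0.94) and Folr2 (-0.32) also had lower means. Fcgr1, a high-affinity antibody receptor that interferon gamma induces, was the 1 of the 11 tested markers without overlap, beside 0.566% of all genes. It was at 5.24 to 6.45 and 2.30 to 5.22 (0.52, SE 0.15; limma adjusted p = 0.836), and the gap between the groups was narrow.

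The other immune and tissue markers varied with single libraries. Neutrophil markers summed to 60.3 to 704 median-scaled TPM in GYY_IgG and 28.9 to 540 in Veh_IgG, with a median log2 difference of 0.46 that became -0.48 without the satellite-rich libraries. Leaving out 1 of them gave 0.09 (GYY_IgG replicate 3) or 0.06 (replicate 4), and leaving out Veh_IgG replicate 4 gave 0.85. Chemokines of the inflammatory kind had a median of 0.23 over 17 genes, and of -0.25 without those libraries. It was below 0 also without GYY_IgG replicate 3, 4 or 5 or Veh_IgG replicate 1 alone (-0.07, -0.07, -0.01 and -0.01), and 0.04 without Veh_IgG replicate 2. Ccl5, a chemokine of T and NK cells, was at 3.58, 4.65, 7.28, 9.95 and 1.602 in GYY_IgG replicates 1 to 5 and at 1.19, 1.49, 1.08, 2.76 and 2.98 in Veh_IgG (1.03, SE 0.35). Replicate 5 of GYY_IgG fell within the vehicle range. Proximal tubule markers, which mark normal kidney, summed to 2.97 to 83.8 in GYY_IgG and 10.1 to 154 in Veh_IgG. Their median was -0.60, and it ranged from -1.002 without GYY_IgG replicate 2 to 0.05 without Veh_IgG replicate 4.

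**Figure D3:**
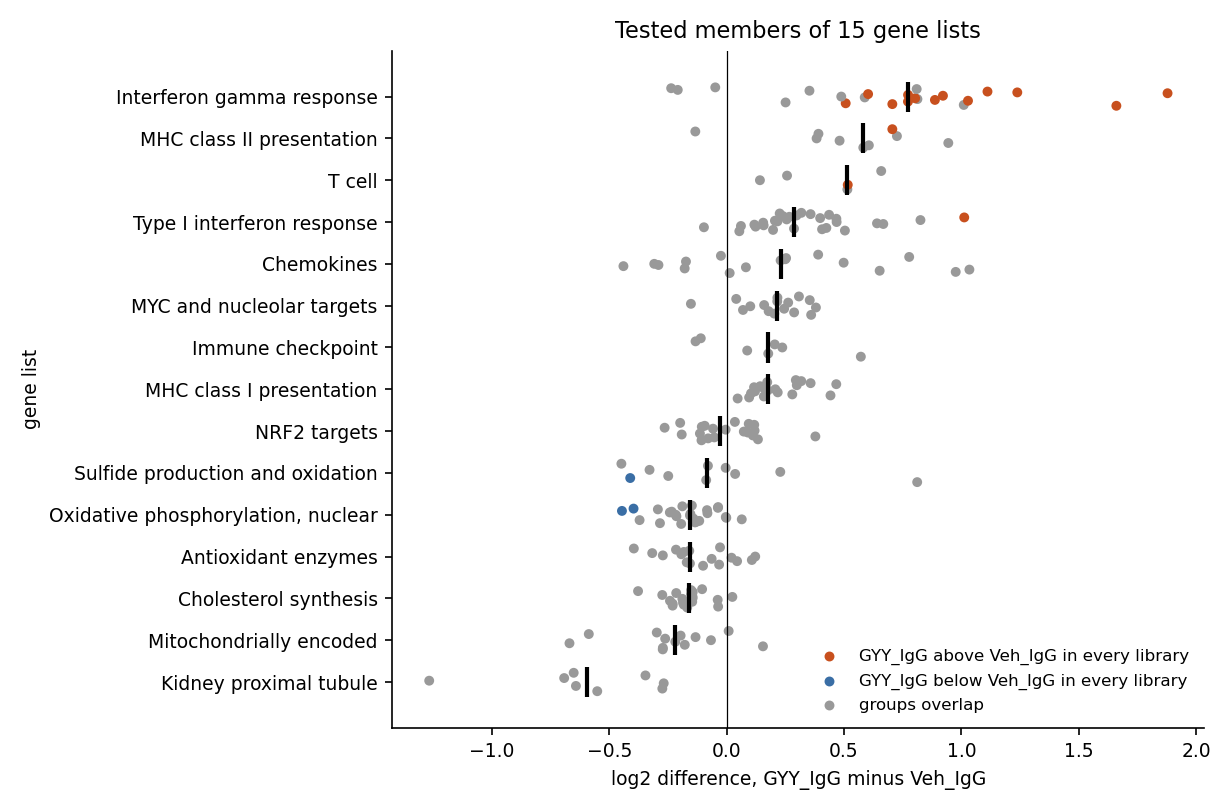
Log2 difference of GYY_IgG minus Veh_IgG for each tested member of 15 gene lists, 1 point per gene; black bars are list medians, and orange or blue points are genes whose groups do not overlap. The interferon gamma list has the highest median (0.77) and 13 orange points, and the nuclear oxidative phosphorylation list lies mostly left of 0 with a median of -0.15.

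The enzymes that make and clear hydrogen sulfide were given whole, irrespective of their values. Of 10 tested, 3 had a higher mean and 7 a lower one, 1 did not overlap (lower, beside 0.482% of all genes), and the median log2 difference was -0.08. Mpst, which makes sulfide from 3-mercaptopyruvate, was the non-overlapping one, at 15.6, 10.8, 14.2, 13.4 and 15.3 median-scaled TPM in GYY_IgG replicates 1 to 5 and at 23.7, 18.2, 19.0, 17.1 and 15.7 in Veh_IgG. The gap between the groups was narrow. Its difference was -0.41 (SE 0.12; limma adjusted p = 0.836). Cth, the most abundant of the 3 producing enzymes, stood at 21.7 to 29.8 and 21.7 to 38.0 and differed by -0.09 (SE 0.14). Cbs, which condenses homocysteine with serine or cysteine, was at 4.97, 3.62, 2.71, 1.01 and 0.374 in GYY_IgG replicates 1 to 5 and at 0.415 to 1.22 in Veh_IgG. The donor-treated replicates 1, 2 and 3 lay above all vehicle tumours, and the difference was 0.81 (SE 0.35; adjusted p = 0.836).

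On the clearing side, Sqor, the quinone reductase that takes up sulfide first, was at 9.51 to 17.0 and 9.16 to 15.2 median-scaled TPM and differed by 0.23 (SE 0.17). Ethe1, the persulfide dioxygenase, was at 20.6 to 56.9 and 28.0 to 52.8 (-0.33, SE 0.25). Tst, a sulfur transferase, differed by -0.08 (SE 0.11) and Suox, the sulfite oxidase, by -0.00 (SE 0.14). Selenbp1, a methanethiol oxidase that releases sulfide, was at 22.2 to 33.7 and 31.1 to 44.1 (-0.45, SE 0.14) with overlapping groups. Cdo1, which oxidises cysteine, and Got1, the cytosolic aspartate aminotransferase, differed by -0.25 (SE 0.47) and 0.04 (SE 0.12).

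**Figure D4:**
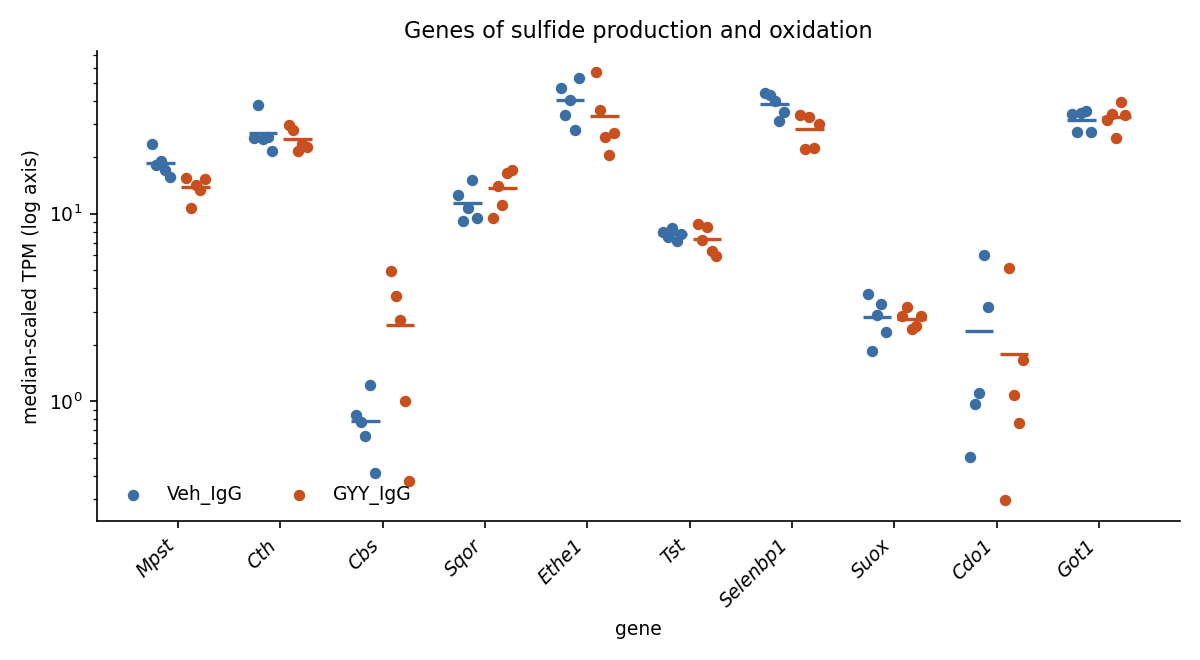
Median-scaled TPM (log axis) of the 10 genes of sulfide production and oxidation in each Veh_IgG (blue) and GYY_IgG (orange) library; bars are group means. Mpst is the gene whose groups do not overlap, from 10.8 to 15.6 against 15.7 to 23.7, and Cbs spans 0.374 to 4.97 within GYY_IgG.

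Target genes of NRF2, the transcription factor that answers to electrophiles and oxidants, showed no shared direction. Of 20 tested, 9 had a higher mean, 0 separated the groups and the median log2 difference was -0.03. Slc7a11, the cystine importer, was at 5.62 to 9.65 median-scaled TPM in GYY_IgG and 4.39 to 6.49 in Veh_IgG (0.38, SE 0.13; limma adjusted p = 0.836). Srxn1, the sulfiredoxin that repairs peroxiredoxins, differed by -0.19 (SE 0.16) and Gstm1, a glutathione transferase, by -0.26 (SE 0.18). Antioxidant enzymes had a higher mean for 4 of 17 and a median of -0.16 (-0.08 without GYY_IgG replicate 4), with 0 genes separated. Only 1 of the 17 was lower at an unadjusted p under 0.05, beside 3.26% of all genes, too few to set the list apart. That gene was Sod3, the extracellular superoxide dismutase, at 10.9 to 17.5 and 16.1 to 24.9 (-0.40, SE 0.15).

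Nuclear genes of oxidative phosphorylation were lower on average. Of 25 tested, 24 had a lower mean, 2 did not overlap (both lower, beside 0.482% of all genes) and 7 had an unadjusted p under 0.05 (all lower, beside 3.26%). The median log2 difference was -0.15, and -0.13 without the satellite-rich libraries. Cox5a, a subunit of cytochrome c oxidase, was at 41.5, 39.7, 39.7, 36.8 and 42.8 median-scaled TPM in GYY_IgG replicates 1 to 5 and at 52.0, 57.4, 54.7, 49.96 and 61.4 in Veh_IgG. The difference was -0.45 (SE 0.08; limma adjusted p = 0.210). Cox8a, another subunit of that complex, was at 114 to 126 and 144 to 176 (-0.40, SE 0.08; adjusted p = 0.297). In both subunits the spread within each group was small and the groups lay clearly apart.

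Among all 82 respiratory chain genes recognised by symbol, a set chosen after values were seen, 8 had a higher mean, 5 were lower without overlap (beside 0.482% of all genes) and 20 were lower at an unadjusted p under 0.05 (beside 3.26%). Besides the subunits above, the 5 were Ndufa11, an accessory subunit of complex I (53.4 ± 8.75 and 75.6 ± 7.44, SD, n = 5; -0.50, SE 0.12), Uqcr11 of complex III (-0.45, SE 0.11) and Cox6a1 of cytochrome c oxidase (-0.35, SE 0.12). The 13 mitochondrially encoded genes had a median of -0.22, with 2 higher means and 0 separated. That median was -0.12 without GYY_IgG replicate 4 and -0.40 without GYY_IgG replicate 3. Among them mt-Nd4l, a complex I subunit, stood at 10.2 to 16.9 and 14.95 to 27.4 (-0.67, SE 0.19).

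Transcript length moved with these values. The median length of the oxidative phosphorylation list was 716 bases and that of the interferon gamma list 2810, against 2062 for all genes. Genes separated downwards had a median of 1219 bases and genes separated upwards 3060.5. Across genes, which are not independent replicates, the log2 difference had a Spearman correlation of 0.20 with length. The gap between short and long transcripts was 0.67 ± 0.08 log2 units in GYY_IgG and 0.76 ± 0.07 in Veh_IgG (SD, n = 5; two-sided exact permutation p = 0.0714, adjusted over 5 measures 0.278). With the length trend removed from each library, an alternative chosen after seeing the data, Cox5a differed by -0.40, Cxcl9 by 1.64, and the list medians were -0.13 and 0.76.

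The remaining genes that were lower without overlap were spread over several functions. Dpm3, a subunit of dolichol-phosphate mannose synthase, had the largest difference, at 21.1, 21.1, 20.4, 12.8 and 20.8 median-scaled TPM in GYY_IgG replicates 1 to 5 and at 31.3, 37.9, 33.8, 25.7 and 29.9 in Veh_IgG. It was 0.606 times the vehicle mean, -0.70 on the log2 scale (SE 0.15; limma adjusted p = 0.292). Others encode mitochondrial or RNA proteins: Dnajc19, of the inner membrane import machinery (-0.54, SE 0.11), Chchd7, of the intermembrane space (-0.58, SE 0.14) and Snrpc, of the U1 splicing particle (-0.58, SE 0.16). Adh1, an alcohol dehydrogenase, stood at 6.59 to 8.68 and 8.89 to 16.4 (-0.52, SE 0.16). Tmem37 (-0.68, SE 0.16), Abtb1 (-0.50, SE 0.13), Commd2 (-0.49, SE 0.14) and Tm2d2 (-0.47, SE 0.12) complete the 10 largest under the naming rule.

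Of the other lists, MYC and nucleolar targets, which serve ribosome production, had a higher mean for 15 of 16 with a median of 0.22, and 0 separated the groups. The median was 0.11 without GYY_IgG replicate 4 and 0.12 without both satellite-rich libraries. Ncl, nucleolin, was at 68.0 to 156 median-scaled TPM in GYY_IgG and 58.2 to 97.7 in Veh_IgG (0.36, SE 0.20). Cholesterol synthesis had 1 higher mean of 20 and a median of -0.16, which became 0.08 without the satellite-rich libraries and 0.04 without GYY_IgG replicate 4 alone. It was -0.28 without GYY_IgG replicate 5, -0.25 without Veh_IgG replicate 3 and -0.09 without Veh_IgG replicate 5. Collagens and matrix genes had 15 higher means of 16 and a median of 0.36, which was 0.04 without Veh_IgG replicate 2, 0.05 without GYY_IgG replicate 4 and 0.23 without Veh_IgG replicate 3. None of these 3 lists had a member with an unadjusted p under 0.05. SWI/SNF subunits had a median of 0.06, and Smarcb1 itself differed by -0.01 (SE 0.14).

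The donor was also given with the antibody against PD1, and that pair shares no library with the first. GYY_PD1 replicates 1 and 4 stood apart, with 4352 and 5825 of the 11834 genes at 1 TPM or more, so values are also given without them. In 1 model of 4 groups, limma called 0 genes for GYY_PD1 against Veh_PD1 (smallest adjusted p 0.278) and 1819 had an unadjusted p under 0.05 (15.4%). The interferon gamma list had a higher mean for 20 of 23 there, 15 with an unadjusted p under 0.05, and a median log2 difference of 0.90. Without replicates 1 and 4 these were 22, 10 and 0.85, with 1063 of all genes under 0.05. Cxcl9 was at 7.21 to 25.2 median-scaled TPM in GYY_PD1 and 0.524 to 20.9 in Veh_PD1 (1.05, SE 0.59, and 1.19, SE 0.68, without the 2 libraries). The vehicle tumours given the antibody thus spanned a wider range than those given IgG.

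Whether the effect of the donor differed between the antibody arms was tested by the interaction. Of all genes 0 were called (smallest adjusted p of limma 0.853) and 271 (2.29%) had an unadjusted p under 0.05, among them 0 of the 23 interferon gamma genes. The difference between arms was -0.61 (SE 0.83) for Cxcl9 and -0.50 (SE 1.00) for Iigp1. For both the SE of the difference was larger than the difference itself. Of the genes with lower means, Dpm3 differed by -0.69 (SE 0.18) with the antibody and Cox8a by -0.41 (SE 0.16), beside -0.70 and -0.40 without it. Others of the 10 largest lower differences varied with the doubted libraries: without GYY_PD1 replicates 1 and 4, Chchd7 differed by -0.13 (SE 0.22), Tmem37 by -0.22 (SE 0.23) and Adh1 by -0.24 (SE 0.21) in the antibody arm, beside -0.58, -0.68 and -0.52 with IgG. Snrpc and Dnajc19 had higher means in the antibody arm with all libraries (0.03 and 0.43) and lower ones without those 2 (-0.64 and -0.64). The oxidative phosphorylation list had a median of -0.41 with the antibody, and -0.16 without GYY_PD1 replicates 1 and 4.

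**Figure D5:**
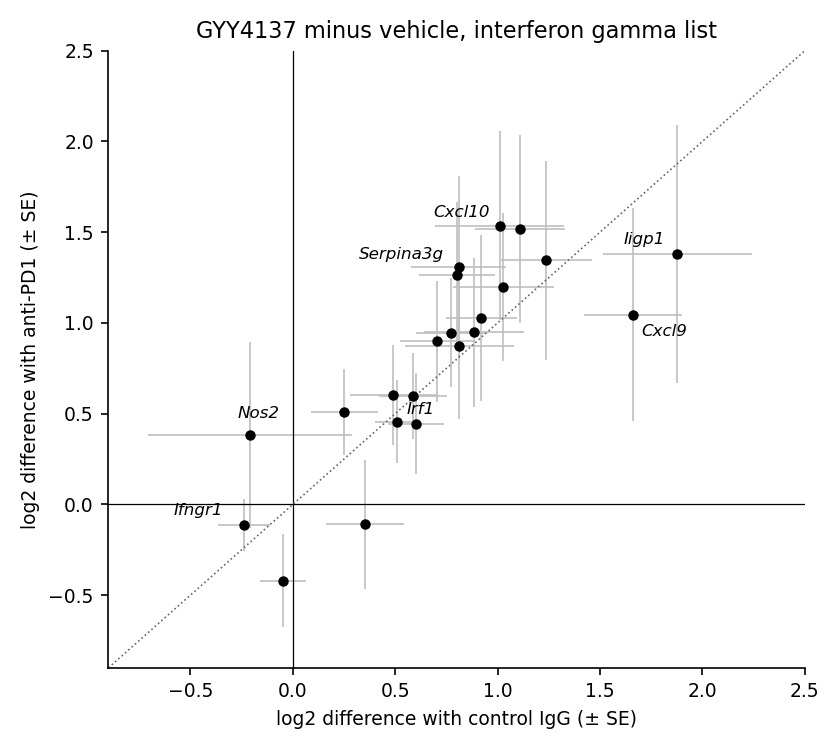
Log2 difference of GYY4137 minus vehicle with control IgG (horizontal) and with the antibody against PD1 (vertical) for 22 of the 23 tested interferon gamma list members, each point 1 gene with its SE; the dotted line marks equal differences. Most points lie in the upper right. The bars are longer for the antibody arm, 0.59 against 0.24 for Cxcl9, but they come from different fits. The IgG bars are from the fit of the 10 IgG libraries alone, and the antibody bars from the model of 4 groups, which pools the variance of all groups. Bar lengths therefore do not compare the spread of the arms.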

How the data were processed

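RNA of 20 tumours, 5 per group, was sequenced. The authors deposited log2 TPM per gene, with a fixed low value standing for 0 TPM and read depth unknown, so that no counting error can be given. The submitters' processing notes list HTSeq 0.11.0, Salmon 0.14.1, fastp, cutadapt and the mm10 build, without saying which made the deposited values. Here the deposited log2 values were turned back into TPM, divided by each library's median over the protein-coding genes with at least 1 TPM in 5 of 20 libraries, and brought to 9.91 TPM. limma 3.58.1 (R 4.3.3, trended variance, 8 residual degrees of freedom) was fitted to log2(value + 1) of the 10 IgG libraries, with Benjamini-Hochberg adjustment over all genes and a threshold of 0.05. The antibody arms were fitted in 1 model of 4 groups with an interaction (16 residual degrees of freedom). Library measures were compared by exact permutation tests (Python 3.11.15, scipy 1.17.1, pandas 2.3.3). The fit was also run on simulated data with independent noise for each gene. These lack the differences between whole libraries seen here, so they do not show how the fit behaves with them.

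The genes and lists were chosen with earlier results of these data known. Genes named are the 10 largest differences each way among genes called, filled up with genes whose groups do not overlap and whose mean is at least 5 median-scaled TPM, without provisional names, then up to 4 members of each described list with the smallest p, and a set of sulfide, checkpoint and interferon genes. Not every gene so selected is described in the text. The sulfide list is given whole. Of the interferon gamma list, 1 gene counts in the totals and is not reported here. Uqcr11, Cox6a1 and F830016B08Rik fall outside that rule and were chosen after their values were seen. The alternatives were other scalings, filters and pseudocounts, library weights, a covariate, a replicate block and leaving out libraries. p-values measure only the spread between these samples.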

Additional observations from a re-analysis of the deposited data

Results flagged for a closer look

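In 14 of 124 groups of 5 libraries examined, the highest or lowest library stood far from the others. A rate of about 1 in 20 would hold for independent groups. These groups share the same libraries and were partly chosen by their values, so the count cannot be set against that rate. Values are in log2(median-scaled TPM + 1). Veh_IgG replicate 2 was the lowest vehicle library for Iigp1 (0.893), Tgtp1 (0.596), Gbp2 (2.20), Gbp3 (1.53), Irgm1 (3.12) and Gbp9 (0.809), all targets of interferon gamma, and the highest for Cth (5.285), an enzyme of sulfide production. GYY_IgG replicate 4 was the lowest of its group for the MHC class II list (2.95), Dpm3 (3.785) and Commd2 (2.89). GYY_IgG replicate 3 was the lowest for Tgtp2 (2.05) and Gbp7 (3.67) and the highest for the mitochondrially encoded list (9.42). GYY_IgG replicate 5 was the lowest for Gbp2b (3.63).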

How the results depend on the processing

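The count of 0 genes called by limma in GYY_IgG against Veh_IgG became 7 with the deposited TPM unscaled, 11 with library weights and 1 with the nuclear coding share as a covariate. It lay between 0 and 6 when 1 library was left out. The 7 were Gm10800 and Gm10801, which are satellite-like models, with Gm10959, Gm10961, Gm11084, Gm37419 and Sult1d1. Of the 11, 9 were higher with GYY4137, among them Cxcl9, Iigp1, Tgtp1, Tgtp2, Igtp, Gbp2b and Zbp1. The 1 was Cxcl9. With all 20 libraries in the fit 0 genes were called (smallest adjusted p of limma 0.9997). On the unscaled TPM, 10 genes were called in the antibody arm and 3 for the difference between the arms. The 67 genes that separated upwards became 103 after rescaling to nuclear coding genes, 1 unscaled, 117 with no filter, 280 without the satellite-rich libraries, and 85 to 166 with 1 library left out. The 57 that separated downwards became 33 rescaled to nuclear coding genes, 9 unscaled, 320 without the satellite-rich libraries and 73 to 154 with 1 library left out. Fewer libraries make separation easier by construction, and otherwise the cause was not tested. With a replicate block 0 genes were called (smallest adjusted p 0.0879). No label says that the numbers pair the samples. The correlations of same-numbered libraries were 0.20, -0.37, -0.14, 0.19 and 0.23, which do not settle it. GYY_IgG replicates 1 and 4 correlated most with the Veh_IgG library of their own number, and replicates 2, 3 and 5 did not. The adjusted p of Cxcl9 ranged from 0.0120 to 1.0 over its alternatives, and its log2 difference from 0.81 to 2.45. Depth is unknown, which limits what can be said of genes near 0.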

Other observations

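Stromal markers stood slightly higher with GYY4137, by an amount that rested on single libraries of both groups. Endothelial markers had a higher mean for 10 of 10 tested genes with a median log2 difference of 0.21, which was 0.00 without Veh_IgG replicate 2, 0.12 without GYY_IgG replicate 2 and 0.35 without Veh_IgG replicate 4. Fibroblast markers had a higher mean for 8 of 10 and a median of 0.28, which was -0.09 without Veh_IgG replicate 2 and -0.10 without GYY_IgG replicate 4. Mitosis genes had a higher mean for 18 of 22 and a median of 0.11, with 0 genes separated. Their median was 0.03 without Veh_IgG replicate 2 or without GYY_IgG replicate 1, and 0.33 without the satellite-rich libraries. Hypoxia genes had a median of -0.02 over 15, which was -0.24 without the satellite-rich libraries and ran from -0.13 (without GYY_IgG replicate 3) to 0.13 (without GYY_IgG replicate 5) with 1 library left out.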
